A study of Caenorhabditis elegans with 12 samples.

Results

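Glutathione transferases join the tripeptide glutathione to reactive, electrophilic compounds, which makes these compounds more soluble and lets export pumps remove them. In Caenorhabditis elegans the family is large, several members are made in the intestine, and gst-4 is widely used as a reporter of SKN-1, the transcription factor of the oxidative and xenobiotic response. The family was taken as every probe set whose only gene symbol in the array annotation starts with gst- or gsto-, with the probe set of the highest mean standing for its gene. This gave 43 genes out of 17118 with a symbol of their own on the array. Of these, 25 were above log2 4 in at least 3 of the 12 arrays and were tested, and 18 were not.

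The arrays hold total RNA of whole N2 worms, the wild-type strain shared by all groups. Worms fed on E. coli HT115 bacteria for 3 days from day 1 of adulthood, eggs and larvae were washed away with M9 buffer, and the age is labelled day 3 adults. Bacteria carried an empty vector or RNA interference (RNAi) against hsp-6, hsp-6;hsf-1 or hsp-6;dve-1, with 3 arrays in each of the 4 groups. The stated question was which genes hsp-6 RNAi alters and which of them are under hsf-1, dve-1 or both. All RNAi groups thus share hsp-6 RNAi; the latter pair are called the hsf-1 double RNAi arrays and the arrays labelled for dve-1 (dve-1 replicates 1 to 3). HSP-6 is a chaperone of the mitochondrial matrix, HSF-1 drives the heat shock response, and DVE-1 acts in the stress response to unfolded mitochondrial proteins.

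Several arrays and labels need to be known before the results. Mean log2 values of hsp-6 were 11.12 on empty vector, 6.84 under hsp-6 RNAi, 9.63 in hsf-1 double RNAi and 9.82 in the arrays labelled for dve-1. It was thus higher in both double RNAi groups than under hsp-6 RNAi (limma, adjusted p = 0.0024 and 0.00086). hsf-1 averaged 7.82 under hsp-6 RNAi and 6.92 in its double RNAi (adjusted p = 0.12). The dve-1 probe set of the higher mean read 8.15, 8.9 and 7.14 in the arrays labelled for its RNAi and 5.68, 5.83 and 5.09 under hsp-6 RNAi. It was thus higher where a knockdown would lower it and does not bear out the label, and the reason was not tested. Its values in hsf-1 double RNAi were 6.25, 5.87 and 8.18, the last in replicate 3. The other dve-1 probe set, of a lower mean, differed less. It read 4.64, 5.31 and 4.59 in the arrays labelled for dve-1 and 4.64, 4.59 and 4.59 under hsp-6 RNAi. In hsf-1 double RNAi it read 4.64, 4.64 and 5.19. hsf-1 read 6.87 in dve-1 replicate 2, within its range of 6.68 to 7.24 in hsf-1 double RNAi. Yolk protein markers of adult hermaphrodites averaged between 14.09 and 14.87 in every array. Replicates 1 and 3 of hsp-6 RNAi were the most alike pair, with a correlation of 0.9966 across the tested probe sets. Each double RNAi array was most like an array of the other double RNAi group: hsf-1 replicates 1, 2 and 3 paired with dve-1 replicates 1, 3 and 2. Replicate 3 of hsf-1 double RNAi and replicate 2 labelled for dve-1 lay farthest out on the first principal component. Calls below are also given without those 2 arrays, and with the alike hsp-6 RNAi arrays averaged into 1. Since no label says that replicates came from separate cultures, p-values reflect the spread between these samples, which may be technical.

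**Figure D1:**
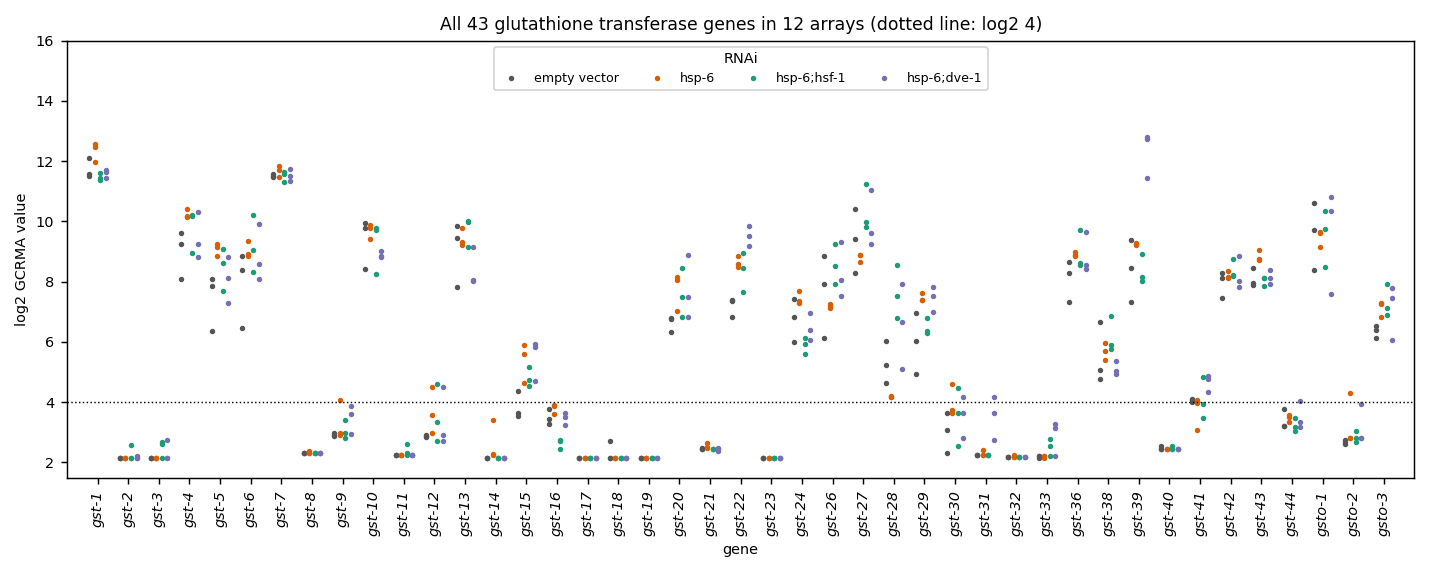
The log2 value (vertical axis) of each of the 43 glutathione transferase genes (horizontal axis) in the 12 arrays, coloured by RNAi group, with a dotted line at log2 4. The 18 genes that were not tested read between 2.16 and 4.32, and gst-39 reads 11.46 to 12.79 in the arrays labelled for dve-1.

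The 18 members that were not tested were gst-2, gst-3, gst-8, gst-9, gst-11, gst-14, gst-16, gst-17, gst-18, gst-19, gst-21, gst-23, gst-31, gst-32, gst-33, gst-40, gst-44 and the omega class gene gsto-2. Their values lay between 2.16, the minimum of all values in the data, and 4.32. In 14 of them no array was above log2 4, and gst-17, gst-19 and gst-23 read 2.16 in every array. gsto-2 read 4.32 in hsp-6 RNAi replicate 2 and 3.95 or less in the other 11 arrays. Levels so near the minimum were not tested between groups.

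gst-39 had the lowest adjusted p among the tested members, and it separated the arrays labelled for dve-1 from all others. Its log2 values were 7.33, 8.45 and 9.37 on empty vector, 9.29, 9.26 and 9.23 under hsp-6 RNAi, and 8.04, 8.93 and 8.16 in hsf-1 double RNAi. Those labelled for dve-1 read 11.46, 12.79 and 12.74. The lowest of these 3 values was above the highest of the other 9. gst-39 was 8.4-fold higher there than under hsp-6 RNAi, a log2 difference of 3.07 (SE 0.49, n = 3 per group, limma adjusted p = 0.0084). It was 15.4-fold higher than on empty vector, a log2 difference of 3.95 (SE 0.49, adjusted p = 0.0037).

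Set directly against each other, the double RNAi groups differed in gst-39 by -3.95 (hsf-1 minus dve-1, SE 0.49, limma adjusted p = 0.006). Of the 25 tested members, gst-39 was the 1 called in that comparison, where 0.232% of all 12057 probe sets tested were called, 0.224% lower and 0.00829% higher. The difference was positive in 14 of the 25 (44.3% of all probe sets). The groups did not overlap for 1 member higher and 3 lower (1.24% and 2.43% of all probe sets). The pairs of most alike arrays across the groups read 8.04 against 11.46, 8.93 against 12.74, and 8.16 against 12.79 for gst-39. As the groups do not overlap, any other pairing would also show a difference, so these pairs add no support. With hsp-6 RNAi alone gst-39 differed from empty vector by 0.88 (95% interval -0.19 to 1.95, adjusted p = 0.32), and in hsf-1 double RNAi from hsp-6 RNAi by -0.89 (-1.95 to 0.18, adjusted p = 0.28). Each of the 3 calls on gst-39 held without any 1 of the 12 arrays, with adjusted p up to 0.045 against hsp-6 RNAi, 0.047 between the double RNAi groups and 0.023 against empty vector. Without the 2 arrays farthest out, the differences were 2.84 against hsp-6 RNAi (adjusted p = 0.026) and -3.61 between the double RNAi groups, where the call was lost (adjusted p = 0.094). The call between the double RNAi groups was also lost with no filter and with these 2 groups fitted alone (limma adjusted p up to 0.15). The call against empty vector was lost with its 2 groups fitted alone (adjusted p = 0.057). With the alike hsp-6 RNAi arrays averaged, the adjusted p against hsp-6 RNAi was 0.044.

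**Figure D2:**
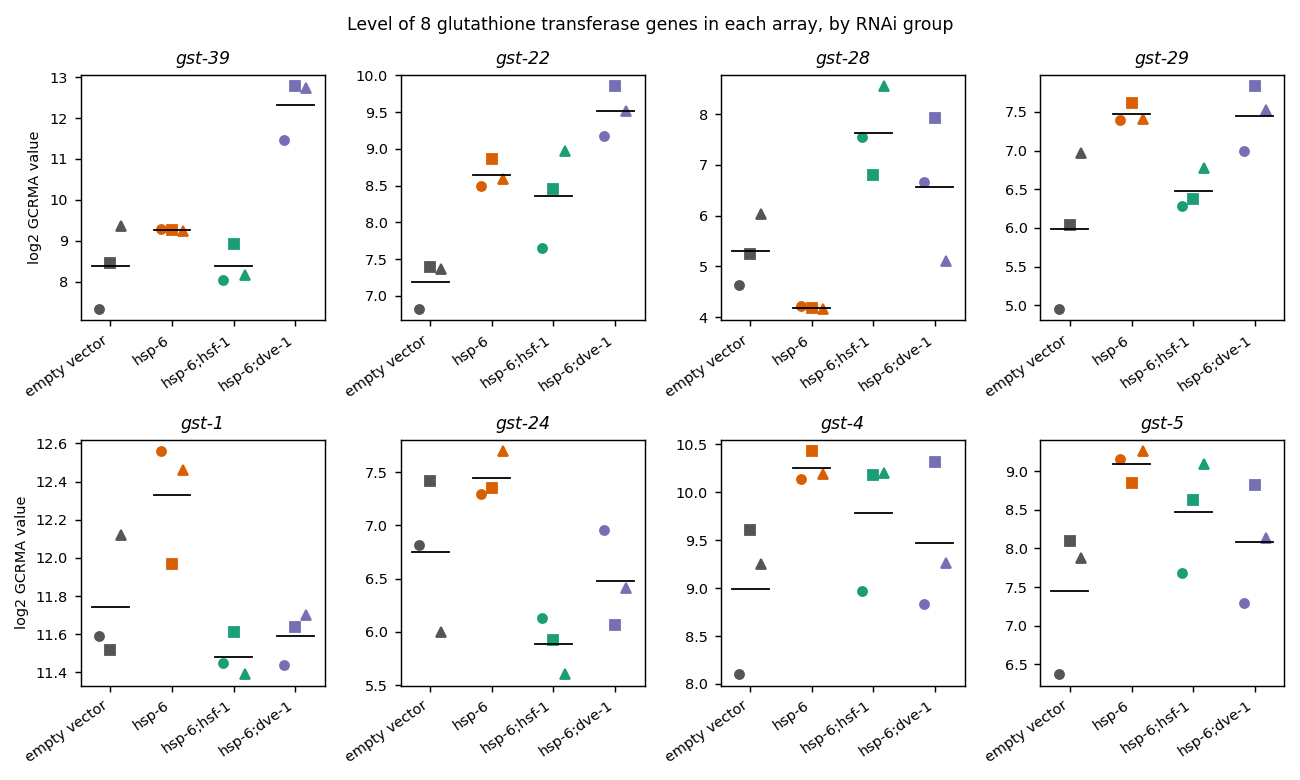
The log2 value (vertical axes, which do not start at 0) of 8 members in each array, by RNAi group on the horizontal axes; circles, squares and triangles are replicates 1, 2 and 3, and lines are group means. gst-39 is above 11 in the arrays labelled for dve-1 alone, and gst-28 lies between 4.16 and 4.22 in all 3 hsp-6 RNAi arrays.

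gst-22 was the 1 member called between hsp-6 RNAi and empty vector. It read 6.82, 7.39 and 7.37 on empty vector and 8.49, 8.86 and 8.59 under hsp-6 RNAi, and these groups did not overlap. The rise was 1.46 on the log2 scale (SE 0.32, 2.74-fold, n = 3 per group, limma adjusted p = 0.04). In the arrays labelled for dve-1 gst-22 read 9.18, 9.86 and 9.51, above all hsp-6 RNAi arrays. That was 2.32 above empty vector (SE 0.32, 5.01-fold, adjusted p = 0.0077), a call that held without any 1 of the 12 arrays, while the difference of 0.87 from hsp-6 RNAi was not called (adjusted p = 0.13). With hsf-1 double RNAi it read 7.65, 8.46 and 8.97, which overlapped the hsp-6 RNAi arrays (difference -0.29, 95% interval -1 to 0.42).

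The call on the hsp-6 RNAi rise of gst-22 depended on single arrays. It was lost without any 1 of the 6 arrays of the 2 groups, and without 1 of 3 others (hsf-1 double RNAi replicate 2, dve-1 replicates 1 and 3). Its adjusted p then reached 0.17. The rise itself ranged from 1.27 to 1.56 over those fits. It gave adjusted p = 0.12 with the alike hsp-6 RNAi arrays averaged and 0.011 without the 2 arrays farthest out.

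Beyond gst-22, most tested members read higher under hsp-6 RNAi than on empty vector without passing the test. Of 25 members 1 was called higher and none lower, where 2.74% of all probe sets tested were called, 1.97% higher and 0.771% lower. At an unadjusted p below 0.05 there were 7 of 25 members and 21.6% of all probe sets. The log2 difference was positive in 20 of 25, with a median of 0.73, against 48.1% positive and a median of -0.02 over all probe sets tested. For 11 members the 3 hsp-6 RNAi arrays all read above the 3 empty vector arrays (19.4% of all probe sets), and for 1, gst-28, all below (20.2%). The filter on low values bears on these figures, since gst-12 and gst-30 were above log2 4 in 3 RNAi arrays and in no empty vector array. Without them 18 of 23 differences were positive, the arrays did not overlap for 9 higher and 1 lower, and the median was 0.70. With no filter the median over all 43 members, the 18 near the minimum included, was 0.26, against 0 over all probe sets. The difference was over 1 in 7 members: gst-5, gst-15, gst-29, gst-22, gst-4, gst-6 and gst-20.

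gst-4, the SKN-1 reporter gene, read 8.10, 9.61 and 9.25 on empty vector and 10.14, 10.43 and 10.19 under hsp-6 RNAi. The groups did not overlap, and the difference was 1.27 (SE 0.47, 95% interval 0.23 to 2.31, limma adjusted p = 0.16). gst-5, whose enzyme can conjugate the lipid peroxidation product hydroxynonenal, read 6.37, 8.09 and 7.87 on empty vector and 9.16, 8.85 and 9.26 under hsp-6 RNAi. Its difference of 1.65 (SE 0.51, adjusted p = 0.11) was the largest in size among the 25 in this comparison, and it was called without the 2 arrays farthest out (adjusted p = 0.046). gst-15 differed by 1.53 (adjusted p = 0.082; 0.043 without those 2 arrays) and gst-29 by 1.49 (adjusted p = 0.089; 0.032 without empty vector replicate 3).

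The size of these differences rested in part on empty vector replicate 1. That array read lowest of its group in 17 of the 25 members, and without it the median difference of the family was 0.44 instead of 0.73 and the difference of gst-4 was 0.83 instead of 1.27. The mean of 9 intestine markers was also lowest in that array, at 8.12, against 9 and 9.2 in the other empty vector arrays and 9.04 to 9.08 under hsp-6 RNAi. None of these 9 markers was called between these groups, 1 of 9 hypodermis and cuticle markers was called higher, and no intestine marker stayed below log2 4 in all arrays. The part of this in the family's difference was not tested. In RNA of whole worms, fewer cells of a type and less RNA per cell cannot be told apart.

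**Figure D3:**
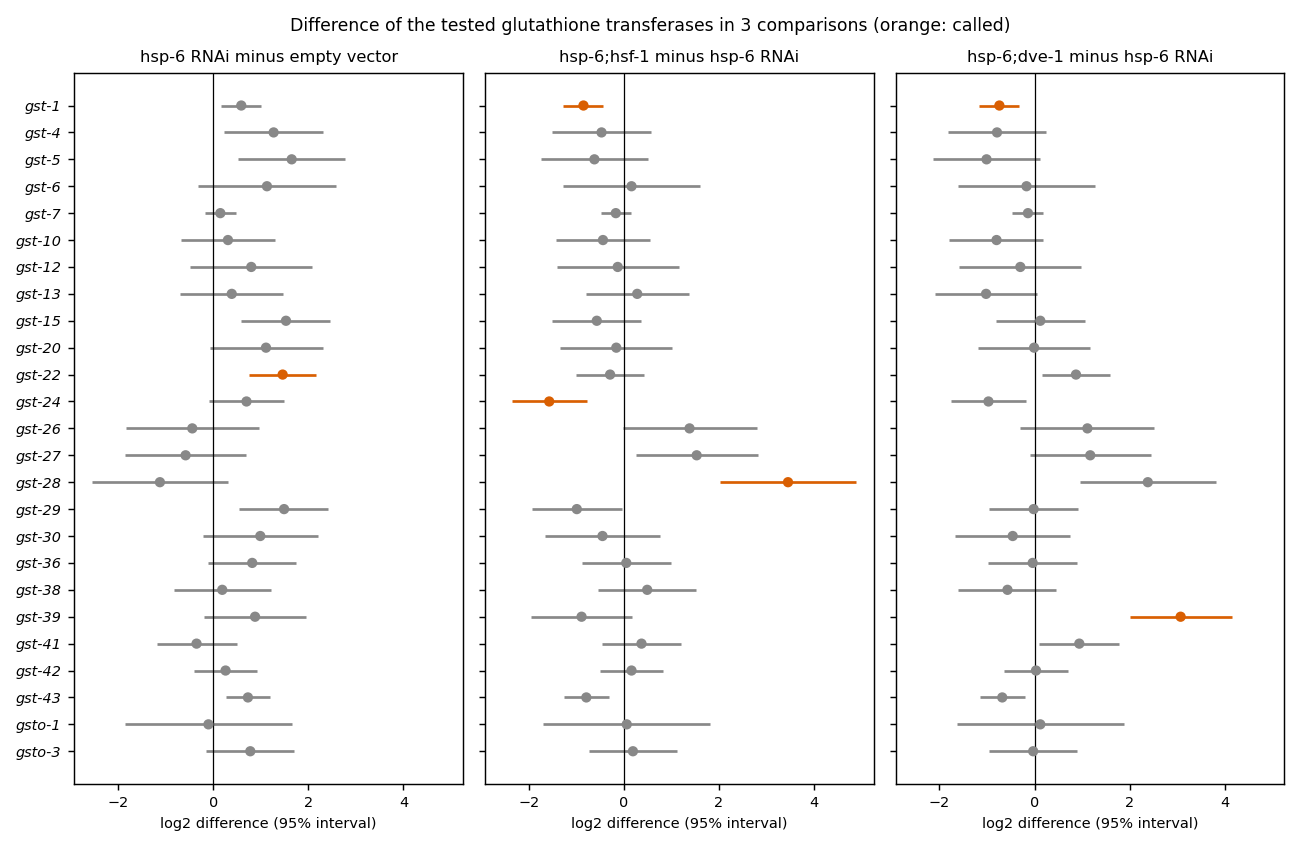
The log2 difference (horizontal axes) with its 95% interval for each of the 25 tested members (vertical axis) in 3 comparisons, with calls at an adjusted p below 0.05 in orange. With hsp-6 RNAi 20 of 25 points lie above 0 and 1, gst-22, is called; gst-28 and gst-39 lie farthest to the right in the hsf-1 double RNAi and dve-1 panels, at 3.45 and 3.07.

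gst-1 fell in both double RNAi groups relative to hsp-6 RNAi. It read 11.59, 11.52 and 12.12 on empty vector and 12.56, 11.97 and 12.46 under hsp-6 RNAi. With hsf-1 double RNAi it read 11.45, 11.61 and 11.39, and in the arrays labelled for dve-1 it read 11.44, 11.64 and 11.70. All 6 double RNAi arrays were thus below all hsp-6 RNAi arrays. The log2 differences were -0.85 (SE 0.19, limma adjusted p = 0.03) and -0.74 (SE 0.19, adjusted p = 0.046), and both comparisons use the same hsp-6 RNAi arrays. Against empty vector gst-1 differed by -0.26 (95% interval -0.68 to 0.15) and -0.15 (-0.57 to 0.26) in those groups, and by 0.59 under hsp-6 RNAi (adjusted p = 0.12).

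gst-24 fell in hsf-1 double RNAi. It read 7.30, 7.35 and 7.70 under hsp-6 RNAi and 6.13, 5.92 and 5.60 in hsf-1 double RNAi, a difference of -1.57 (SE 0.36, limma adjusted p = 0.032). Its values of 6.96, 6.06 and 6.41 in the arrays labelled for dve-1 were also below every hsp-6 RNAi array, with a difference of -0.97 that was not called (adjusted p = 0.13). The direct difference between the double RNAi groups was -0.59 (95% interval -1.38 to 0.19). With empty vector gst-24 read 6.82, 7.42 and 6 and overlapped both.

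gst-43 also had its highest group mean under hsp-6 RNAi and its lowest in hsf-1 double RNAi, without a call in the main fit. Its results in the alternative fits are not given here. It read 7.95, 7.90 and 8.46 on empty vector, 8.71, 9.04 and 8.75 under hsp-6 RNAi, 7.86, 8.14 and 8.11 in hsf-1 double RNAi and 7.94, 8.39 and 8.14 in the arrays labelled for dve-1. Every hsp-6 RNAi array was above every other array. The differences were 0.73 under hsp-6 RNAi (limma adjusted p = 0.092), and -0.79 (adjusted p = 0.055) and -0.68 (adjusted p = 0.088) for the double RNAi groups against hsp-6 RNAi. gst-43 was chosen for mention after its values were seen.

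gst-28 had its lowest values in the hsp-6 RNAi arrays. It read 4.63, 5.25 and 6.04 on empty vector, 4.22, 4.18 and 4.16 under hsp-6 RNAi, and 7.54, 6.80 and 8.56 in hsf-1 double RNAi. In the arrays labelled for dve-1 it read 6.67, 7.92 and 5.11. The rise in hsf-1 double RNAi over hsp-6 RNAi was 3.45 (SE 0.65, 10.9-fold, limma adjusted p = 0.018). In the arrays labelled for dve-1 the difference was 2.38 (SE 0.65, adjusted p = 0.056), and those arrays overlapped the empty vector arrays. It was called without hsf-1 double RNAi replicate 3 (adjusted p = 0.041) or dve-1 replicate 3 (3.11, adjusted p = 0.011). Below empty vector, the hsp-6 RNAi arrays differed by -1.12 (adjusted p = 0.35).

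The 3 calls in the hsf-1 double RNAi comparison and that on gst-1 in the other depended on single arrays. Each of gst-1, gst-24 and gst-28 lost its hsf-1 double RNAi call without hsp-6 RNAi replicate 1 or 3 or hsf-1 double RNAi replicate 1 or 3, and gst-24 and gst-28 also without hsp-6 RNAi replicate 2. The highest adjusted p values were 0.12, 0.12 and 0.075. The gst-1 call in the arrays labelled for dve-1 was lost without any 1 of 7 arrays: replicates 1 and 2 of empty vector, 1 and 3 of hsp-6 RNAi, 1 of hsf-1 double RNAi, and 1 and 2 labelled for dve-1 (adjusted p up to 0.17). Without the 2 arrays farthest out, gst-28 kept its call (difference 2.98, adjusted p = 0.022). gst-24 (-1.43, adjusted p = 0.059) and gst-1 (-0.80, adjusted p = 0.067, and -0.76, adjusted p = 0.076) did not. With the alike hsp-6 RNAi arrays averaged, none of these 4 calls held (adjusted p = 0.12 and 0.16 for gst-1, 0.11 for gst-24, 0.075 for gst-28).

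Over the family, the double RNAi groups differed from hsp-6 RNAi in both directions. With hsf-1 double RNAi 1 member of 25 was called higher and 2 lower, where 5.67% of all probe sets were called, 2.91% higher and 2.76% lower. The difference was positive in 11 of 25 (41.5% of all probe sets), with a median of -0.16 against -0.10 over all probe sets. In the arrays labelled for dve-1 1 was called higher and 1 lower, where 5.74% of all probe sets were called, 2.78% higher and 2.96% lower. Here 9 of 25 differences were positive (45% of all probe sets), with a median of -0.04 against -0.06. The family medians depended on single arrays. That of hsf-1 double RNAi was -0.36 after leaving out its replicate 3 and 0.06 after leaving out its replicate 1, and the other was -0.49 after leaving out dve-1 replicate 2. The part of the higher hsp-6 level of both double RNAi groups in these differences was not tested. The groups did not overlap for 3 members higher and 5 lower in hsf-1 double RNAi (12.9% and 21.5% of all probe sets). They did not overlap for 6 higher and 7 lower in the arrays labelled for dve-1 (14% and 19.9%).

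Against empty vector no member was called in hsf-1 double RNAi, a comparison in which limma called 0% of all probe sets at an adjusted p below 0.05. At an unadjusted p below 0.05, 5 of 25 members and 3593 probe sets (29.8%) passed. The difference was positive in 18 of 25 (40.9% of all probe sets), and the groups did not overlap for 5 members, all higher (14.5% higher and 22.3% lower of all probe sets). In that comparison gst-28 differed by 2.33 (adjusted p = 0.092, and 0.043 to 0.05 without hsf-1 double RNAi replicate 2 or dve-1 replicate 2 or 3), gst-22 by 1.17 (adjusted p = 0.091) and gst-6 by 1.28 (adjusted p = 0.20). In the arrays labelled for dve-1 2 members were called higher, gst-39 and gst-22, and none lower, where 2.27% of all probe sets were called, 1.75% higher and 0.523% lower. The difference was positive in 20 of 25 (43% of all probe sets), and the groups did not overlap for 6 members, all higher (14.3% higher and 18.2% lower of all probe sets). gst-15 differed there by 1.64 (adjusted p = 0.063, and 0.047 or 0.025 without hsf-1 double RNAi replicate 3 or dve-1 replicate 3) and gst-29 by 1.47 (adjusted p = 0.079). The family median lay at 0.67 and 0.59 above empty vector in the 2 double RNAi groups, against -0.13 and -0.10 over all probe sets. Without empty vector replicate 1 these medians were 0.19 and 0.10, and without dve-1 replicate 2 the latter was 0.16. With no filter they were 0.14 and 0.19 over all 43 members. The filter on low values bears on these comparisons too, through gst-12 and gst-30. Without these genes 16 of 23 differences were positive in hsf-1 double RNAi and 18 of 23 in the arrays labelled for dve-1. The groups then did not overlap for 5 and 6 members, all higher, and the medians were 0.68 and 0.59.

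Of the 43 members, 22 lay in 4 runs of neighbouring genes in the RefSeq annotation, with at most 1 other protein-coding gene between members. The run of gst-26, gst-27, gst-28, gst-29, gst-39, gst-31 and gst-32 held both gst-28 and gst-39, and its 5 tested genes differed in the group of their highest mean: hsf-1 double RNAi for gst-26, gst-27 and gst-28, hsp-6 RNAi for gst-29, and the arrays labelled for dve-1 for gst-39. gst-26 read 7.18, 7.27 and 7.13 under hsp-6 RNAi and 7.94, 8.53 and 9.25 in hsf-1 double RNAi, a difference of 1.38 (limma adjusted p = 0.21). gst-27 read 8.88, 8.65 and 8.89 in the same hsp-6 RNAi arrays and 9.81, 9.98 and 11.24 in hsf-1 double RNAi, a difference of 1.53 (adjusted p = 0.14). gst-26, gst-27 and gst-28 had their lowest group mean under hsp-6 RNAi.

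gst-29 read 4.95, 6.04 and 6.97 on empty vector, 7.40, 7.61 and 7.41 under hsp-6 RNAi, 6.29, 6.38 and 6.78 in hsf-1 double RNAi, and 7, 7.84 and 7.52 in the arrays labelled for dve-1. Its 3 hsf-1 double RNAi arrays were below all hsp-6 RNAi arrays and all arrays labelled for dve-1, with differences of -0.99 (adjusted p = 0.18) and -0.97 (adjusted p = 1). gst-31, the next gene after gst-39, was not tested. It read 2.75, 4.16 and 3.65 in the arrays labelled for dve-1 and between 2.24 and 2.41 in the other 9 arrays, a point noted after its values were seen. Whether the probe sets of near-identical neighbours detect each other's transcripts was not tested. That of gst-27 carries the suffix _s_at, which marks probes shared between transcripts, and those of the other 4 tested genes do not.

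**Figure D4:**
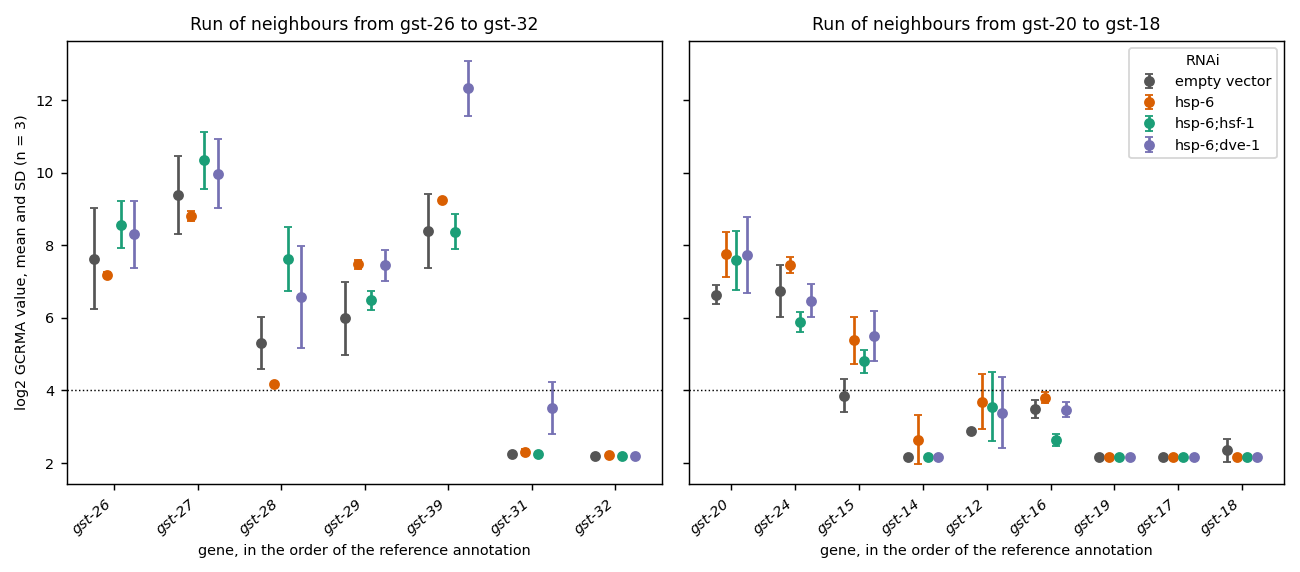
Group means with SD (n = 3) of the log2 value (vertical axis) for the genes of 2 runs of neighbours, in annotation order on the horizontal axes, with a dotted line at log2 4. In the run from gst-26 to gst-32 the dve-1 mean of gst-39 is 12.33 against 8.38 to 9.26 in the other groups, and its neighbour gst-29 spans 5.99 to 7.47; in the run from gst-20 to gst-18, 4 of 9 genes were tested.

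The longest run held 9 members, gst-20, gst-24, gst-15, gst-14, gst-12, gst-16, gst-19, gst-17 and gst-18, and 4 of them were tested. gst-20 averaged 6.64 on empty vector and between 7.59 and 7.75 in the other groups, with SDs of 0.26 to 1.06 and no call. gst-15 averaged 3.85, 5.38, 4.81 and 5.50 in the order empty vector, hsp-6, hsf-1 double RNAi and dve-1, again with no call. In the main fit, gst-24 alone in this run was called in any comparison. Of the run gst-3, gst-2 and gst-4, the first pair stayed at or below 2.74 in every array. In the run gst-6, gst-7 and gst-8, gst-6 averaged 7.91 on empty vector and 8.87 to 9.19 in the other groups, while gst-8 was not above 2.37.

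Other well-known members showed little difference between groups or too much spread within them. gst-7 read between 11.31 and 11.83 in all 12 arrays, and its difference under hsp-6 RNAi was 0.15 (95% interval -0.17 to 0.48). gst-42, the maleylacetoacetate isomerase of tyrosine breakdown, averaged between 7.96 and 8.38 in the 4 groups, with a difference of 0.26 under hsp-6 RNAi (-0.41 to 0.93). The omega class gene gsto-1 averaged between 9.47 and 9.59, but its dve-1 replicates read 10.36, 10.81 and 7.60, and the interval of its hsp-6 RNAi difference ran from -1.86 to 1.66. gsto-3, another omega class gene, averaged 6.35 on empty vector and 7.10 to 7.32 in the other groups, with adjusted p of 0.16 to 0.31 in the 3 comparisons with empty vector. Without dve-1 replicate 3, which read 6.07, it was called in the arrays labelled for dve-1 (1.26, adjusted p = 0.045).

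gst-10, whose enzyme also conjugates hydroxynonenal, read 8.41, 9.96 and 9.78 on empty vector, 9.42, 9.87 and 9.79 under hsp-6 RNAi, and 8.82, 8.84 and 9.01 in the arrays labelled for dve-1. The latter were below every hsp-6 RNAi array, with a difference of -0.80 (limma adjusted p = 0.30). gst-13 differed between the double RNAi groups by 1.29 (adjusted p = 1) and gst-38 by 1.06 (adjusted p = 1), both higher in hsf-1 double RNAi. By group mean, 11 of the 25 tested members were highest under hsp-6 RNAi, 9 in hsf-1 double RNAi, 5 in the arrays labelled for dve-1 and none on empty vector, where 12 were lowest. Those 12 include gst-12 and gst-30, which passed the filter through RNAi arrays alone. This tally has no share over all probe sets beside it.

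Markers of other tissues moved with the double RNAi groups. The mean of 11 sperm markers was 3.89 to 8.33 in the empty vector and hsp-6 RNAi arrays, 10.11 to 11.81 in hsf-1 double RNAi and 8.63 to 12.05 in the arrays labelled for dve-1. Against hsp-6 RNAi 10 and 8 of the 11 were called higher. The mean of 9 hypodermis and cuticle markers was 7.48 to 8.08 in the first 6 arrays and 8.26 to 10.56 and 8.17 to 10.36 in the double RNAi groups, with 4 of 9 called higher in each. The muscle marker mean was 6.66 to 7.01 in the first 6 arrays and 7.24 to 8.95 in the double RNAi arrays, and of 5 tested muscle markers 1 was called higher in each double RNAi group. The intestine marker mean was 9.32 to 10.55 in hsf-1 double RNAi and 8.73 to 10.08 in the arrays labelled for dve-1. Of 9 intestine markers 1 was called higher in hsf-1 double RNAi than under hsp-6 RNAi, and none of 6 neuron and 6 tested embryo markers was called. Against empty vector, 1 muscle marker was called higher in the arrays labelled for dve-1. No other marker of these tissues was called against empty vector, though the sperm medians were 4.88 and 4.2 higher in hsf-1 double RNAi and the arrays labelled for dve-1. The embryo markers end-1, end-3, hlh-1 and ceh-51, and the muscle marker myo-2, stayed below log2 4 in every array.

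Marker means are set beside 3 members by array. gst-28 and gst-27 read highest in hsf-1 double RNAi replicate 3 and dve-1 replicate 2, at 8.56 and 7.92 and at 11.24 and 11.05, the 2 arrays with the highest hypodermis and cuticle means (10.56 and 10.36). In dve-1 replicate 3, whose cuticle mean of 8.17 was close to the empty vector arrays, gst-28 read 5.11. In hsf-1 double RNAi replicate 2, with a similar cuticle mean of 8.26, it read 6.80, above every empty vector array. The intestine marker mean was also highest in those 2 top arrays, at 10.55 and 10.08, and at most 9.38 in the other 10. gst-39 read 11.46, 12.79 and 12.74 in dve-1 replicates 1, 2 and 3, and it read 8.16 in hsf-1 double RNAi replicate 3. Over the family, dve-1 replicate 2 read highest of its group in 20 of 25 members and hsf-1 double RNAi replicate 3 in 17. The part of these tissue markers in the differences of gst-26, gst-27, gst-28 and gst-39 was not tested.

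**Figure D5:**
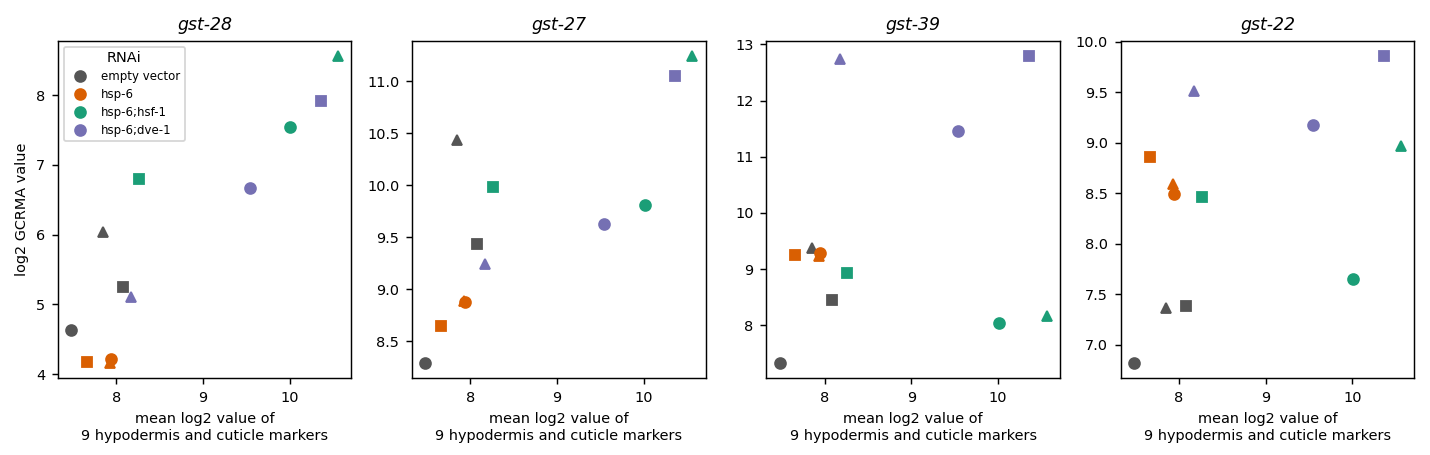
The log2 value of gst-28, gst-27, gst-39 and gst-22 (vertical axes) against the mean log2 value of 9 hypodermis and cuticle markers (horizontal axes), 1 point per array, with circles, squares and triangles for replicates 1, 2 and 3. gst-28 and gst-27 are highest in the 2 arrays with marker means of 10.36 and 10.56. In the arrays labelled for dve-1, gst-39 reads 11.46, 12.79 and 12.74 at marker means of 9.54, 10.36 and 8.17.

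The rest of the glutathione pathway showed no called change. Of 48 listed genes for glutathione synthesis, peroxidases, glutaredoxins and thioredoxins, glyoxalases, export pumps and regulators, 45 were matched and 40 were tested. In the 6 comparisons limma called none of these 40, and 0% to 5.74% of all probe sets tested. These shares are small, so the lack of calls does not set the pathway apart. Single arrays mattered here too. Without hsf-1 double RNAi replicate 2, 2 genes were called for hsf-1 double RNAi against hsp-6 RNAi and 1 against empty vector, and 1 was called for dve-1 against empty vector without hsf-1 double RNAi replicate 3 or dve-1 replicate 3. At an unadjusted p below 0.05 there were 2 under hsp-6 RNAi against empty vector, and 8 and 9 for hsf-1 double RNAi and dve-1 against hsp-6 RNAi, each of 40. Over all probe sets the shares were 21.6%, 24.7% and 24.2%. Their median differences in these 3 comparisons were 0.12, -0.19 and -0.09, against -0.02, -0.10 and -0.06 over all probe sets. Between the double RNAi groups 0 of 40 had an unadjusted p below 0.05 (2.3% of all probe sets). Against empty vector there were 9 in hsf-1 double RNAi (29.8%) and 7 in the arrays labelled for dve-1 (26.8%).

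gcs-1, which makes the first enzyme of glutathione synthesis and is another SKN-1 target, differed by 0.23 under hsp-6 RNAi (95% interval -0.16 to 0.61, limma adjusted p = 0.48). skn-1 itself differed by -0.40 (-1.02 to 0.21), and gsr-1, glutathione reductase, by -0.36 (adjusted p = 0.14). trxr-1, the cytosolic thioredoxin reductase, averaged 7.13 on empty vector, 8.04 under hsp-6 RNAi and 6.62 in hsf-1 double RNAi, and the last step of -1.41 was not called (adjusted p = 0.08). The export pump gene mrp-7 differed by -0.98 and -0.88 in the double RNAi groups against hsp-6 RNAi (adjusted p = 0.13 and 0.17). gpx-7, a glutathione peroxidase gene, differed by 1.66 in hsf-1 double RNAi (adjusted p = 0.12). The kappa class transferase gene gstk-1 differed by -0.71 in the arrays labelled for dve-1 (adjusted p = 0.18).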

How the data were processed

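Whole worms were measured on Affymetrix 3' expression arrays. The authors deposited log2 values made with GCOS 1.4 and GCRMA, per the submitters' processing notes; The sources used here give no version or settings for GCRMA. Low probe sets lay near floors that differed between them. gst-17, gst-19 and gst-23 read 2.16, the minimum of all values, in every array, and gst-8 read 2.33 to 2.37. Differences against such a floor may be understated, which was not tested. Arrays have no count depth, so their number limits the precision.

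Gene names come from GEO's platform annotation of the array. All 43 members have the same symbol in RefSeq. The 77 control probe sets were left out, and 12057 of 22625 were tested, those above log2 4 in at least 3 of 12 arrays. limma 3.58.1 in R 4.3.3 fitted 4 group means to all 12 arrays with a variance trend (8 residual and 3.16 prior degrees of freedom). Tests were two-sided, and calls used a Benjamini-Hochberg adjusted p below 0.05 over all probe sets tested in each of 6 comparisons. The fit was also run on simulated data with independent noise in each value. Such data hold no deviation shared across an array, so they cannot show how the fit handles one. The 95% intervals are unadjusted.

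Named members are those called, the 5 largest differences per comparison, 9 well-known genes, the 3 highest members and the 3 with the smallest range of group means. The members, lists and alternatives were chosen with earlier results of these data known. Promoter motifs and sequences were not analysed here. Same-numbered arrays of different groups did not deviate together throughout (8 of 18 pairs correlated over 0.1), so they were not paired.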

Additional observations from a re-analysis of the deposited data

Results flagged for a closer look

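gst-39 differed between the double RNAi groups under the same kind of contrast. Adding dve-1 RNAi to hsp-6 RNAi, as labelled, went with a log2 difference of 3.07 and adding hsf-1 RNAi with -0.89, and the difference between these groups was tested directly (-3.95, SE 0.49, limma adjusted p = 0.006). The groups hold 3 arrays each, too few for a test of single outlying arrays.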

How the results depend on the processing

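The counts of called members are small, so single arrays move them. The main counts, in the order hsp-6 against empty vector, hsf-1 and dve-1 double RNAi against hsp-6, the double RNAi groups against each other, and both against empty vector, were 1, 3, 2, 1, 0 and 2. Leaving out each array in turn gave 0 to 1, 0 to 4, 1 to 3, 1 to 1, 0 to 1 and 2 to 4. With no filter the first 4 counts were 0, 1, 1 and 0. Another quantile normalization gave 0 for the first. The average of the alike hsp-6 RNAi arrays gave 0, 0 and 1 for the first 3, and leaving out the 2 arrays farthest out gave 4, 1, 1 and 0 for the first 4. A fit of the compared groups alone gave 1 for dve-1 against hsp-6, 0 between the double RNAi groups and 1 for dve-1 against empty vector. The variance model without trend gave 1 for dve-1 against hsp-6. With the replicate block, hsf-1 and dve-1 against hsp-6 gave 1 and 1, gst-28 and gst-39, and the numbers are not known to pair samples. The cause of these changes was not tested, apart from the fewer arrays or more probe sets that some settings bring. No called member difference changed sign under these alternatives. The same alternatives were applied to the other pathway genes after seeing the data, and their counts of 0 moved in the leave-one-out fits given in the report alone. Leaving gst-12 and gst-30 out of the family counts was also chosen after seeing the data.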
